A study of Mus musculus with 6 samples.

Results

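A set of 10 genes of T lymphocytes and natural killer (NK) cells was examined by symbol in a table of 23518 genes from mouse ear skin: Cd3e, Cd3d, Cd3g, Cd247, Lck, Skap1, Thy1, Il7r, Il2rb and Prf1. Each was found, and all 10 passed the filter on low values, under which 15049 genes were tested. The ears of wild-type (WT) mice and of HdR mice, whose HOIL1 lacks the RING1 domain, had received 10 mg of cream containing 5% imiquimod, a Toll-like receptor agonist, and RNA was taken on day 1. Both genotypes had 3 samples and all were treated, so nothing here describes skin without imiquimod. The labels state neither the age, sex and strain of the mice nor the promoter or cells in which the RING1 deletion acts, and they do not say whether each sample came from a separate mouse. The p-values therefore measure the spread between these samples, which may be partly technical. HOIL1, the product of Rbck1, is a subunit of the complex that builds linear ubiquitin chains on proteins of the NF-kB pathway.

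T cells recognise antigen with a receptor that cannot signal by itself. It depends on the CD3 chains and on the zeta chain encoded by Cd247, whose cytoplasmic tails are phosphorylated by the kinase LCK. Mouse skin holds gamma-delta T cells in the epidermis and other T cells, innate lymphoid cells and few NK cells in the dermis, and cytokines of the IL-7, IL-2 and IL-15 family maintain them. In RNA from whole skin, fewer cells of a type and less RNA per cell cannot be told apart.

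The deposited values were coverage, the aligned bases summed over each gene. Levels are given as bases per Mb of scaled library. With a read pair taken as 300 bases, 1 base per Mb stood for 11.7 to 23.6 read pairs. All numbers of read pairs below are estimates of this kind. Changes are given as the HdR mean minus the WT mean of log2(value + 1). This is too small a figure for genes of low coverage. Library totals were 4433 to 5966 Mb. Rbck1, the gene altered in HdR mice, read 66.6, 55.1 and 64.1 in WT skin against 23.9, 13.0 and 19.7 in HdR skin. All HdR values lay below all WT values, but coverage summed over all exons does not show whether 1 domain is missing. Coverage of long transcripts relative to short ones was lower in all HdR libraries than in all WT libraries (slopes per doubling of length from -0.27 to -0.08 against 0.04 to 0.25), and the ribosomal precursor Rn45s took 0.368% to 1.54% of bases in HdR and 0.102% to 0.119% in WT. The part of these differences in the results below was not tested, but values after removal of a length trend, fitted per library, are given where they change the call of a gene named from the lists of T and NK cell genes.

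Of the 10 genes, Il7r and Skap1 rose in HdR skin, Il2rb and Prf1 fell, and the 4 chains of the CD3 and zeta complex, Lck and Thy1 did not pass the test. These 4 calls of 10 stand beside 30.6% of all genes tested, 12.7% higher and 17.9% lower (limma, Benjamini-Hochberg adjusted p under 0.05). The WT and HdR values did not overlap for the same 4 genes, against 51.5% of all genes tested, 20.9% higher and 30.7% lower. Of these 4, Prf1 passed the filter through its WT samples alone, so its groups had to be apart. The median log2 change of the 10 was 0.17, and that of all genes tested was -0.13. With the replicate number as a block 5 of the 10 were called, Cd3d being the additional gene, beside 45.5% of all genes (18.3% higher and 27.2% lower). After removal of the length trend only Il7r was called, beside 19.4% of the genes that had a length (10.9% higher and 8.47% lower). The calls depended on single libraries. Of the 10, 0 were called without WT replicate 1, where 2.88% of all genes were called, without WT replicate 3 (9.13% of all genes) or without HdR replicate 2 (12.8%). Only Il2rb was called when HdR replicate 1 was left out (18.9% of all genes), and only Il7r and Skap1 when HdR replicate 3 was (23.9%). Without WT replicate 2, where 40.5% of all genes were called, the genes called were Il7r, Skap1, Cd3d and Cd3g, all higher, and Il2rb, lower.

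**Figure D1:**
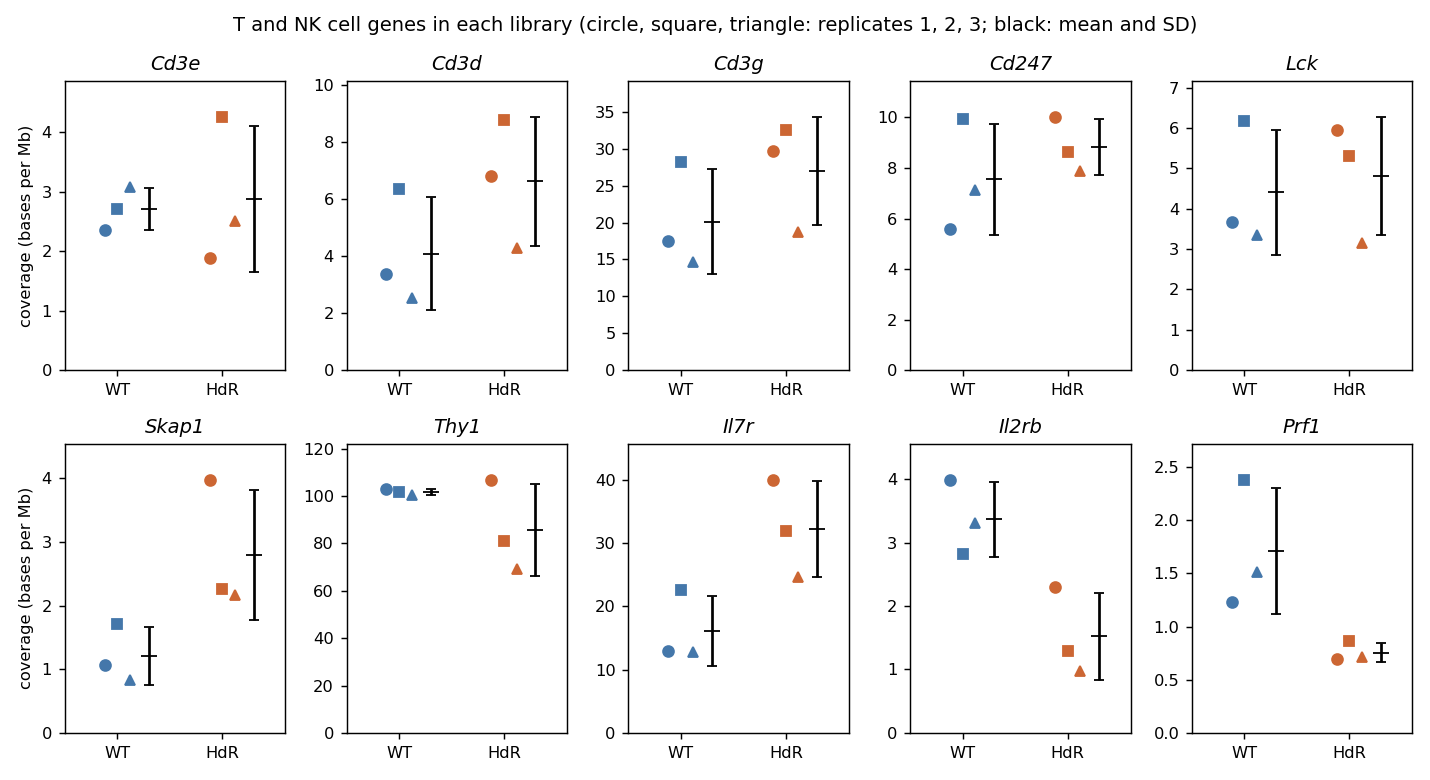
Coverage of the 10 genes in bases per Mb (vertical axes, each starting at 0) in the 3 WT and 3 HdR libraries, with marker shapes for replicate numbers and black bars for the mean and SD. The groups are apart for Il7r, Skap1, Il2rb and Prf1 and overlap for the other genes.

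Thy1, which encodes a surface glycoprotein of mouse T cells that dermal fibroblasts and nerve cells also carry, had the highest level of the 10, and this held per length too. Per kb of the longest annotated transcript, Thy1 had a mean of 58.7 bases per Mb in WT, followed by Cd3g with 7.92, Il7r with 4.55, Cd247 with 2.55, Cd3d with 2.53, Lck with 2.02, Cd3e with 1.06, Il2rb with 0.803, Prf1 with 0.691 and Skap1 with 0.576. In HdR the order was Thy1 at 49.4, Cd3g at 10.6, Il7r at 9.10, Cd3d at 4.09, Cd247 at 2.99, Lck at 2.20, Skap1 at 1.34, Cd3e at 1.13, Il2rb at 0.363 and Prf1 at 0.305. Thy1 lay above Cd3g in every library, with no overlap of their ranges. The ranges of Cd3g and Il7r overlapped within each genotype, but Cd3g was above Il7r in all 3 libraries of each. Lck was likewise below its neighbour, Cd3d in WT and Cd247 in HdR, in all 3 libraries of the genotype. Cd247 and Cd3d, Il2rb and Prf1, and in WT also Cd3e and Il2rb and Prf1 and Skap1, changed places between libraries, as did Skap1 and Cd3e in HdR, so these neighbours do not differ beyond their spread. Within libraries, the level of Thy1 per kb was 3.65 to 10.1 times that of Cd3g, and the level of Cd3g 4.77 to 15.9 times that of Cd3e.

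Cd3g encodes the gamma chain of the CD3 complex (ENSMUSG00000002033.14, chromosome 9, 44969572 to 44980431 of GRCm38, minus strand). Its coverage was 17.5, 28.2 and 14.6 in WT replicates 1, 2 and 3 and 29.7, 32.6 and 18.8 in HdR replicates 1, 2 and 3. Replicate 3 was the lowest of each genotype, and WT replicate 2 lay above HdR replicate 3. The log2 change was 0.42 (95% interval -0.21 to 1.05; limma adjusted p = 0.259). Cd3d, the gene of the delta chain, lies next to it on the opposite strand (ENSMUSG00000032094.8, chromosome 9, 44981786 to 44987339). It read 3.38, 6.33 and 2.54 in WT against 6.79, 8.77 and 4.28 in HdR, with the 6 libraries in the same order as for Cd3g. Its log2 change of 0.61 (95% interval -0.11 to 1.32) did not pass (limma adjusted p = 0.162). With the replicate number as a block Cd3d passed (limma adjusted p = 0.0275), while Cd3g did not (limma adjusted p = 0.0533).

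The log2 levels of Cd3d and Cd3g moved together across the 6 libraries (Pearson r = 0.99, a description that includes the difference between genotypes). Their annotated RefSeq starts are 1355 bases apart and point away from each other. The 250 bases before each start are shown because this neighbouring pair had the most similar pattern over libraries among the 10 genes. They come from the RefSeq table for GRCm38.p6, written 5′ to 3′ on the strand of the gene, and end at the base before the start, which is position -1. Capitals mark matches on either strand to a motif for ETS factors (CAGGAA), for RUNX factors (TGTGGT), for GATA factors (AGATAA), for STAT factors (TTCNNNGAA, where N is any base) or for NF-kB (GGGNNTTCC), of which ETS, STAT and NF-kB matches may share bases.

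Cd3g, chr9:44980432-44980681, minus strand: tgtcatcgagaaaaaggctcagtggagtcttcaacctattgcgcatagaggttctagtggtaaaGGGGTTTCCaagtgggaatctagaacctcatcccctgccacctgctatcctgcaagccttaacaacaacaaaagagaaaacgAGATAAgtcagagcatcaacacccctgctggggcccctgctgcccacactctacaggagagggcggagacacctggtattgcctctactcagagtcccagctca
Cd3d, chr9:44981536-44981785, plus strand: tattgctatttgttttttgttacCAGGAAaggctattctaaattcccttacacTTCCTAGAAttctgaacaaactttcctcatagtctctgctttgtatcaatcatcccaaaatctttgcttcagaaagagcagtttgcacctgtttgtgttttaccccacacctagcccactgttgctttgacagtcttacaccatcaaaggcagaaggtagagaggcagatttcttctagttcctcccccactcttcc

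The Cd3g window held a GATA match at position -104 and an NF-kB match at -186, and the Cd3d window an ETS match at -227 and a STAT match at -197. Of the 32851 RefSeq promoter windows of 250 bases, 25.7% hold the ETS letters, 14.0% the RUNX letters, 9.99% the GATA letters, 7.02% the STAT letters and 4.98% the NF-kB letters. Promoters were found for 7 of the 10 genes, in 8 entries because Lck has a distal and a proximal one. The NF-kB letters were only in that of Cd3g, and the ETS letters in all except that of Cd3g. A match describes letters and does not show a binding site.

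Cd3e and Cd247 complete the receptor complex. Cd3e encodes the epsilon chain, which pairs with both the gamma and the delta chain (ENSMUSG00000032093.7, chromosome 9, 44998740 to 45009627, minus strand). It read 2.36, 2.71 and 3.08 in WT against 1.88, 4.26 and 2.51 in HdR, equal to between 31 and 73 read pairs per library. The HdR samples enclosed the WT samples, and the change of 0.02 had a 95% interval of -0.53 to 0.57 (limma adjusted p = 0.951). Cd3e did not follow its neighbours across libraries (Pearson r = 0.24 with Cd3d and 0.16 with Cd3g). Cd247 (ENSMUSG00000005763.15, chromosome 1, 165788681 to 165877277) read 5.58, 9.94 and 7.14 in WT against 10.0, 8.62 and 7.87 in HdR. Its change was 0.23 (95% interval -0.28 to 0.73; limma adjusted p = 0.447). Of the 5329 exonic bases of Cd247, 3007 are shared with Pou2f1 on the other strand, and without a stated strand the reads of both genes cannot be told apart. Pou2f1, a widely expressed transcription factor gene, fell from 34.7 ± 7.14 to 14.2 ± 2.76 (SD, n = 3; limma adjusted p = 0.00979).

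LCK starts receptor signalling, and SKAP1 is an adaptor that links the receptor to integrin adhesion. Lck (ENSMUSG00000000409.14, chromosome 4, 129548344 to 129573641) read 3.68, 6.18 and 3.36 in WT against 5.95, 5.31 and 3.15 in HdR. The WT and HdR samples spanned nearly the same range, with a log2 change of 0.10 (95% interval -0.51 to 0.72; limma adjusted p = 0.782). Skap1 (ENSMUSG00000057058.16, chromosome 11, 96464593 to 96759130) read 1.07, 1.71 and 0.839 in WT against 3.97, 2.26 and 2.16 in HdR. Every HdR sample lay above every WT sample, and Skap1 rose by 0.77 on the log2 scale (SE 0.24; limma adjusted p = 0.0414). HdR replicate 1 was the highest. Between 20 and 65 read pairs per library stood behind these values. Skap1 did not pass with the length trend removed (log2 change 0.64, limma adjusted p = 0.0771), with scaling to total bases (limma adjusted p = 0.0891), in the test of all genes with no filter (limma adjusted p = 0.0779) or without WT replicates 1 or 3 or HdR replicates 1 or 2 (limma adjusted p = 0.135, 0.135, 0.107 and 0.0743).

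Thy1 (ENSMUSG00000032011.5, chromosome 9, 44043384 to 44048579) read 103, 102 and 101 in WT, the tightest of the 10 genes, and 107, 81.1 and 69.1 in HdR. HdR replicate 1 lay above the WT samples and the other HdR samples below them. The change of -0.27 (95% interval -0.68 to 0.14) did not pass (limma adjusted p = 0.270). After removal of the length trend, and with the replicate number as a block, Thy1 was lower in HdR, a log2 change of -0.51 (limma adjusted p = 0.0314), and without the block the adjusted p was 0.0598 (limma). Of 8 fibroblast markers, Col1a1 and Col1a2 fell and Dpt rose, Col1a2 not passing with the length trend removed (limma adjusted p = 0.243); 2 were higher and 4 lower with the replicate block and 5 lower with scaling to total bases. Their summed level was 5563 to 7917 in WT and 6217 to 7759 in HdR. Their part in the level of Thy1 was not tested.

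Il7r had the highest mean level of the 4 called genes. It encodes the receptor chain for IL-7, which also serves the cytokine TSLP and is carried by T cells and innate lymphoid cells (ENSMUSG00000003882.5, chromosome 15, 9505788 to 9530176, minus strand). Coverage was 13.0, 22.6 and 12.7 in WT against 40.0, 32.0 and 24.7 in HdR. All HdR samples were above all WT samples, though WT replicate 2 came close to HdR replicate 3. Mean coverage was 16.1 ± 5.60 in WT and 32.2 ± 7.65 in HdR (SD, n = 3), and Il7r rose by 0.98 on the log2 scale (SE 0.26; limma adjusted p = 0.0258). With a pseudocount of 0.1 in place of 1 its change was 1.02, beside 1.15 for Skap1, -1.17 for Il2rb and -1.04 for Prf1, so the order of the 4 changes by size depends on the pseudocount. Il7r was also called with the length trend removed (log2 change 1.20, limma adjusted p = 0.0221). It was not called with scaling to total bases (0.67, limma adjusted p = 0.0657), without the filter on low values (limma adjusted p = 0.0626), or without WT replicates 1 or 3 or HdR replicates 1 or 2 (limma adjusted p = 0.102, 0.0784, 0.0759 and 0.0755).

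Il2rb, a receptor chain shared by IL-2 and IL-15 and abundant on NK cells and memory T cells, changed in the other direction (ENSMUSG00000068227.9, chromosome 15, 78479256 to 78495271, minus strand). It read 3.99, 2.81 and 3.30 in WT against 2.30, 1.29 and 0.974 in HdR, so that the lowest WT sample was above the highest HdR sample. Il2rb fell by 0.82 on the log2 scale (SE 0.23; limma adjusted p = 0.0313), with 54 to 78 read pairs in WT and 14 to 38 in HdR. The change was -0.51 with the length trend removed and no longer passed (limma adjusted p = 0.131). Without WT replicates 1 or 3 or HdR replicates 2 or 3 it did not pass either (limma adjusted p = 0.123, 0.0808, 0.0903 and 0.0785), nor in the test of all genes with no filter (limma adjusted p = 0.0631).

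Prf1 encodes perforin, the pore-forming protein of cytotoxic granules (ENSMUSG00000037202.6, chromosome 10, 61297833 to 61304680, plus strand). It read 1.23, 2.38 and 1.52 in WT against 0.692, 0.859 and 0.711 in HdR. These were an estimated 24, 46 and 36 read pairs in WT against 11, 10 and 10 in HdR. All HdR samples lay below 1 base per Mb, so the gene entered the test through its WT samples alone and its groups had to be apart. Prf1 fell by 0.61 on the log2 scale (SE 0.20; limma adjusted p = 0.0489), close to the threshold. It did not pass with median-of-ratios scaling (limma adjusted p = 0.0625), without the filter (limma adjusted p = 0.0740), after removal of the length trend (-0.62, limma adjusted p = 0.0630) or without any 1 of the HdR replicates (limma adjusted p = 0.0878 to 0.103), and without any 1 of the WT replicates it fell under the filter.

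The sequences before the RefSeq starts of Il7r and Prf1 are shown as examples of a gene that rose and a gene that fell, from the same RefSeq table and with the same marking. By the gene positions given above, Il7r reaches to 9530176, so its whole window lies inside the gene. Prf1 starts there at 61297833, so the last bases of its window lie inside the gene too.

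Il7r, chr15:9529877-9530126, minus strand: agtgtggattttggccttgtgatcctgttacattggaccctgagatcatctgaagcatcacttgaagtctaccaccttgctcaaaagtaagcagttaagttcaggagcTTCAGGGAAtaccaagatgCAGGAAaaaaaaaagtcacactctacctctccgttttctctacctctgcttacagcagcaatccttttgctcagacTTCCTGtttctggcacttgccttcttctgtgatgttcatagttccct
Prf1, chr10:61297586-61297835, plus strand: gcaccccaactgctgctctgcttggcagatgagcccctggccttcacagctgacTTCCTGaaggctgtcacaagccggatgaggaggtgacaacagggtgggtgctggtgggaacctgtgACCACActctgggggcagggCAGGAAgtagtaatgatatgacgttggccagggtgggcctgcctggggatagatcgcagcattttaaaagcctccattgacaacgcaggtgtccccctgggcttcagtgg

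Both windows held a pair of ETS matches, at positions -123 and -47 for Il7r and -196 and -110 for Prf1. Il7r also had a STAT match at -142 and Prf1 a RUNX match at -130. ETS letters were thus before the RefSeq start of a gene that rose and of a gene that fell, as before 25.7% of all RefSeq starts.

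**Figure D2:**
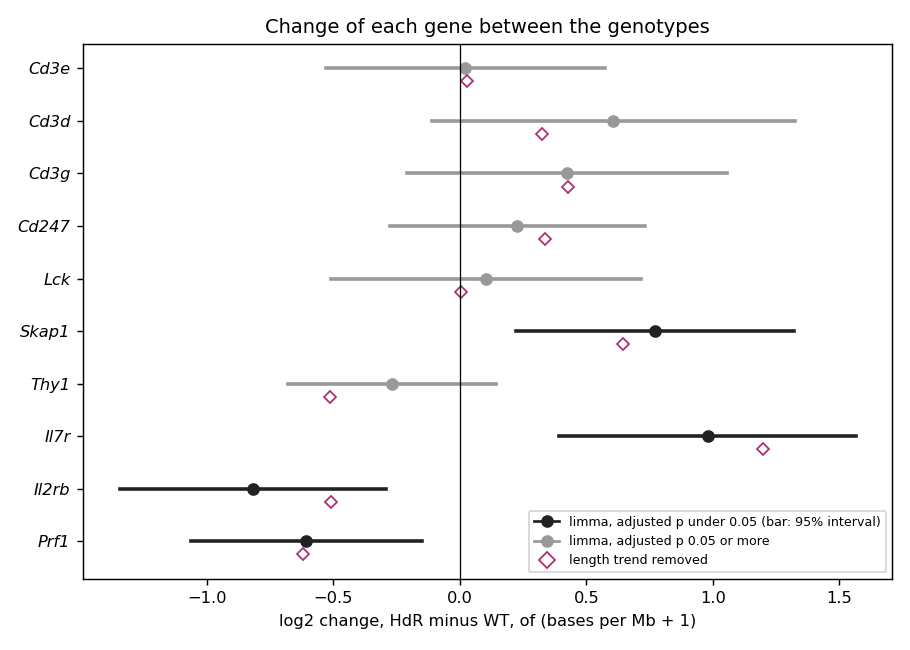
Log2 change of each gene, HdR minus WT, of bases per Mb plus 1 (horizontal axis), with the 95% interval of the limma fit as a bar and the change with the length trend removed as an open diamond. The intervals of Skap1, Il7r, Il2rb and Prf1 lie on 1 side of 0.

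Ratios within a library do not depend on how libraries are scaled, and each gene was therefore also set against Cd3g, per kb, a comparison chosen after the values were seen. The Il7r to Cd3g ratio was 0.533, 0.574 and 0.624 in WT against 0.966, 0.704 and 0.944 in HdR. The Il2rb ratio was 0.138, 0.0605 and 0.137 in WT against 0.0469, 0.0240 and 0.0314 in HdR. The Prf1 ratio was 0.0723, 0.0867 and 0.106 in WT against 0.0239, 0.0271 and 0.0389 in HdR. In each of these 3 ratios the genotypes were apart, each with an exact permutation p of 0.1 (two-sided; no smaller p is possible with 3 samples a group). The longest transcripts of Prf1 and Cd3g have similar lengths, 2474 and 2539 nt. Those of Il2rb (4194 nt), Il7r (3540), Lck (2185), Skap1 (2095) and Cd3d (1617) differ more from that of Cd3g. Their ratios therefore carry the length trend of each library, and its part was not tested. The genotypes were also apart for the ratios of Skap1 and Cd3d, higher in HdR, and of Lck, lower, which makes 6 of 9 ratios, 3 higher and 3 lower, against 19.3% of all genes tested (6.33% higher and 13.0% lower). The Prf1 ratio is among these 6, although Prf1 passed the filter through its WT samples alone. The values of Prf1 had to be apart before the ratio was taken, so its ratio is not separate support. The levels of Il7r, Skap1 and Il2rb were also apart before the ratio was taken. Their ratios thus largely repeat the result on levels and are not separate support either, and the share over all genes does not change this. The ratios of Cd3e, Cd247 and Thy1 overlapped (exact permutation p = 0.4, 0.5 and 0.2). All of these ratios share the values of Cd3g and are not independent, and 9 were computed, so none passes after adjustment.

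**Figure D3:**
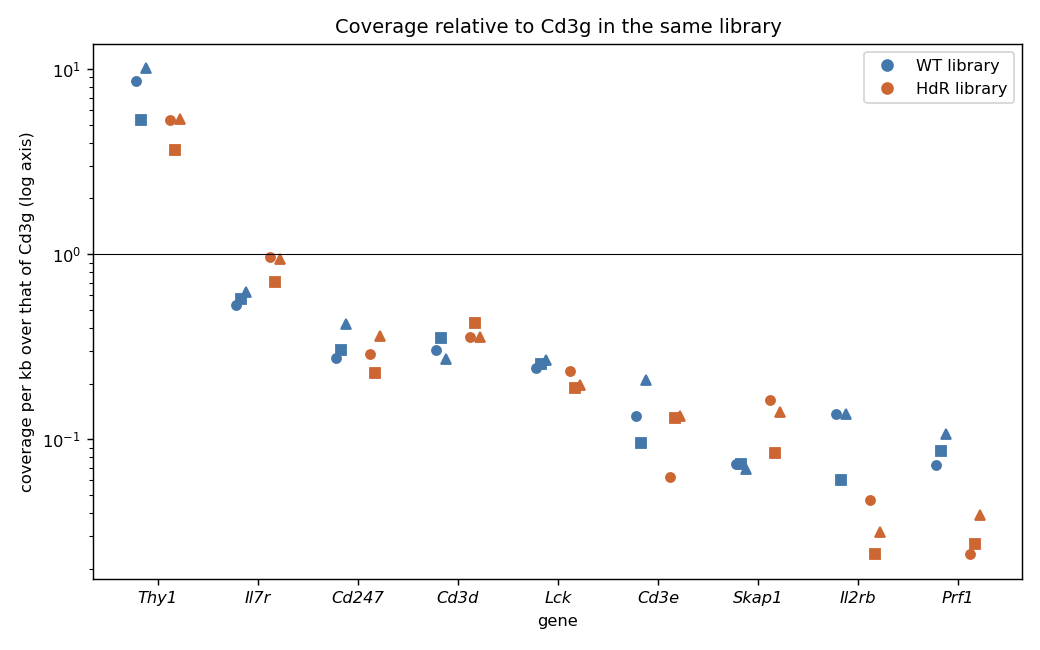
Coverage per kb of 9 genes divided by that of Cd3g in the same library (logarithmic vertical axis), for WT (blue) and HdR (orange) libraries, marker shapes giving the replicate. The Il7r points of HdR lie above those of WT, and the Il2rb and Prf1 points below them.

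The level of the CD3 chains Cd3e, Cd3d and Cd3g, averaged on the log2 scale, was compared with each other gene tested over the 6 libraries. The most similar were Pycard (Pearson r = 0.997), Selenow (0.996), Slc39a4 (0.993), 0610037L13Rik (0.991) and Zeb2os (0.990), and none of these encodes a T cell receptor component. Among the other members Lck had an r of 0.78, Il7r 0.77, Cd247 0.68, Skap1 0.61, Prf1 -0.12, Thy1 -0.17 and Il2rb -0.49. Their ranks among the genes compared were 2166, 2272, 3162, 3707, 6738, 6947 and 8496 in the same order. Many unrelated genes thus followed the CD3 chains more closely than any of these members. Il7r and Skap1 had similar patterns to each other (r = 0.97), as did Il2rb and Thy1 (r = 0.88). These 6 points include the difference between genotypes and share the depth and length trend of each library.

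In all, 7 further lists, with 126 genes in the table and 100 tested, hold genes related to the same cells. Some of these genes, such as Tslp, Plcg1, Il10, Id2, Id3 and Rora, are expressed in other cells of skin. Of these 100, 15 were called, 9 higher and 6 lower, or 15.0% beside 30.6% of all genes. The natural killer receptor gene Klrd1 and the adaptor gene Hcst rose in the main test and in all 15 alternatives run, and no other gene of the lists or of the 10 was called in all of them. Leaving out WT replicate 1 gave 3 higher and 0 lower genes of the lists in total, beside 2.88% of all genes called, and leaving out WT replicate 3 (9.13%) or HdR replicate 2 (12.8%) gave 3 and 1. The totals were 4 and 6 when HdR replicate 1 was omitted (18.9%), 11 and 4 for HdR replicate 3 (23.9%) and 15 and 8 for WT replicate 2 (40.5%).

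**Figure D4:**
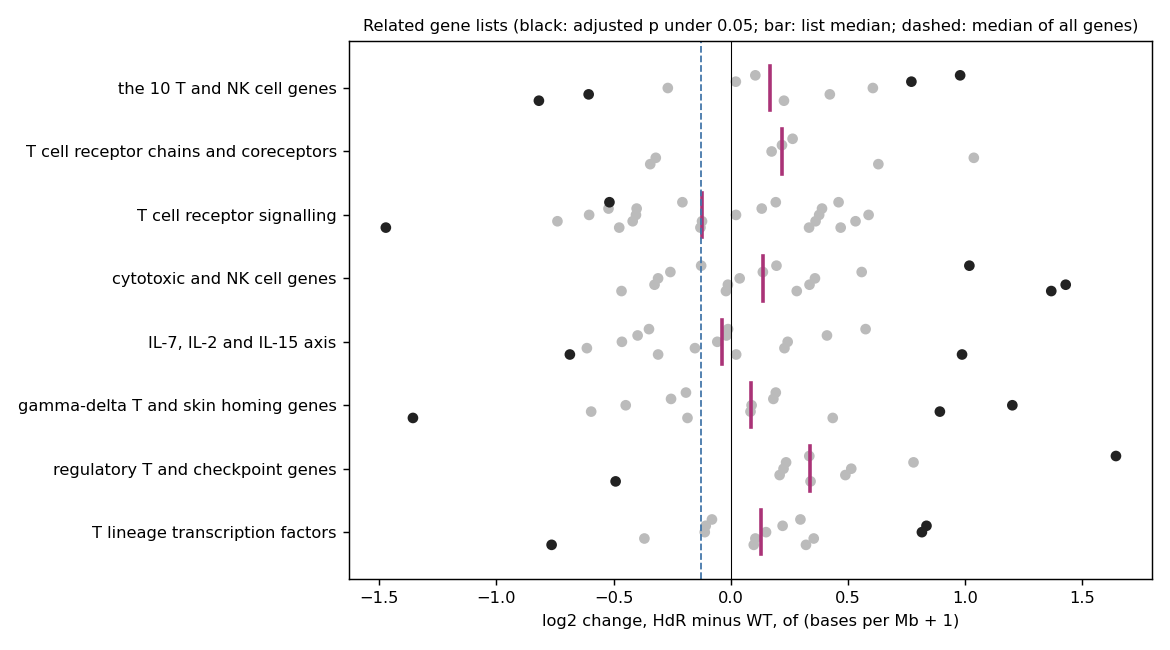
Log2 change, HdR minus WT (horizontal axis), of each tested gene in the 10 T and NK cell genes and the 7 related lists; black points have an adjusted p under 0.05, bars are list medians and the dashed line is the median of all genes, -0.13. In most lists the called genes lie on both sides of 0.

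Of 7 tested T cell receptor coreceptor and costimulatory genes, 0 were called by limma, and 0 had an unadjusted p under 0.05. Their median change was 0.22. The adhesion receptor gene Cd2 read 4.34, 7.17 and 2.98 in WT against 20.3, 12.1 and 4.37 in HdR, a log2 change of 1.04 (limma adjusted p = 0.113). The costimulator gene Icos read 3.14 ± 1.69 and 5.42 ± 2.61 (SD, n = 3; limma adjusted p = 0.228), and Cd28 and Cd96 had changes of -0.32 and -0.34 (limma adjusted p = 0.347 and 0.283). With the replicate number as a block, Cd2 and Icos passed (limma adjusted p = 0.0245 and 0.0453). Without HdR replicate 3, 1 gene, Cd2, was higher. Cd8a, Cd8b1, Cd6 and Cd27 were in the table but under the filter. The 7 constant-region genes of the receptor chains that were looked up were not found in the table by symbol, so they could not be analysed.

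Among 23 tested genes of T cell receptor signalling, Plcg1 and Cblb fell, 0 rose (limma; 1 at an unadjusted p under 0.05) and the median change was -0.12. Plcg1, a phospholipase gene used by many receptors in skin cells too, fell from 35.6 ± 12.6 to 12.2 ± 4.50 (SD, n = 3; log2 change -1.47, limma adjusted p = 0.0163). Cblb, a ubiquitin ligase gene that restrains activation, fell from 26.6 ± 2.15 to 18.3 ± 1.53, and with the length trend removed its change was -0.03 (limma adjusted p = 0.884). The kinase gene Fyn and the diacylglycerol kinase gene Dgka had changes of -0.60 and -0.74 (limma adjusted p = 0.0539 and 0.0708). With the replicate block 5 genes fell, the former 2 with Fyn, Dgka and Rasgrp1, and with the length trend removed 3 rose, Nck1, Nfatc2 and Themis, and only Plcg1 fell. With WT replicate 1 left out 0 genes were lower, and with WT replicate 3 or HdR replicates 2 or 3 left out 1 was. Leaving out HdR replicate 1 gave 3 lower genes, and leaving out WT replicate 2 gave 3 lower and 3 higher ones. Without HdR replicate 3, 1 gene, Themis, was higher.

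Of 17 tested cytotoxic and NK cell genes, 3 rose and 0 fell (limma; 0 lower at an unadjusted p under 0.05), with a median change of 0.14. Klrd1, which encodes CD94, a partner chain of NKG2 receptors, read 7.65, 11.3 and 6.87 in WT against 21.9, 28.9 and 23.0 in HdR, a log2 change of 1.43 (SE 0.22; limma adjusted p = 0.00700). Hcst, whose product DAP10 passes on signals of the receptor NKG2D, read 2.02, 2.88 and 1.19 in WT against 6.66, 6.95 and 6.28 in HdR (1.37, SE 0.23; limma adjusted p = 0.00944). Both groups of values were clearly apart. Klrb1b, an inhibitory receptor gene, rose from 20.7 ± 4.08 to 43.6 ± 11.3 (SD, n = 3; limma adjusted p = 0.0179), and the granule transport gene Rab27a stood at 23.2 ± 0.728 and 19.3 ± 1.86 (limma adjusted p = 0.221). Klrk1, which encodes NKG2D, had a change of 0.56 (limma adjusted p = 0.234) and passed with the replicate block (limma adjusted p = 0.0374). Leaving out WT replicates 1 or 3 or HdR replicates 1 or 2 left 2 higher genes of the 17. The granzyme genes did not move with Prf1 in a uniform way: Gzmb read 7.36, 15.1 and 2.68 in WT against 13.7, 12.9 and 4.13 in HdR, and Gzma 1.99, 6.45 and 0.700 in WT against 1.54, 2.89 and 0.455 in HdR (limma adjusted p = 0.630 and 0.506). Replicate 3 was the lowest for both granzymes in both genotypes. With the length trend removed and the replicate block, Gzma and Ccl5 of this list were lower in HdR (limma adjusted p = 0.0182 and 0.0123). Prf1 also passed in that setting (limma adjusted p = 0.0424), and Gzmb did not pass in any. Another 9 genes of the list were under the filter, of which 7 had overlapping groups and stayed below 1 base per Mb in every library. Klrb1c, which encodes the NK1.1 antigen, read 0.308, 0.619 and 0.210 in WT against 0.836, 1.13 and 1.23 in HdR. Tbx21, a transcription factor gene of NK cells and type 1 T cells, read 0.287, 0.251 and 0.169 in WT against 0.420, 1.43 and 0.940 in HdR. The groups of both were apart, at levels too low to be tested. The defining NK genes Ncr1 and Eomes were among the 7, and stayed below 1 base per Mb in all 6 libraries, with Ncr1 at 0 in WT replicate 3 and Eomes at 0 in WT replicates 2 and 3 and HdR replicate 3.

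In the IL-7, IL-2 and IL-15 axis, 1 of 16 tested genes rose and 1 fell, and the median change was -0.04. Tslp, a cytokine gene of keratinocytes whose product binds a receptor containing the Il7r chain, rose from 4.80 ± 2.32 to 9.98 ± 0.899 (SD, n = 3; log2 change 0.99, limma adjusted p = 0.0279), and did not pass with the length trend removed (0.54, limma adjusted p = 0.190). Jak1, the kinase gene of many cytokine receptors, fell from 138 ± 12.2 to 86.4 ± 17.7 (limma adjusted p = 0.0282) and did not pass with the trend removed (-0.31, limma adjusted p = 0.130). Il7 itself read 10.0, 15.1 and 9.69 in WT against 12.5, 15.5 and 12.7 in HdR, with overlapping groups, and Il2rg, the chain shared by these receptors, had a change of -0.35 (limma adjusted p = 0.359). Il15ra and Stat5b had changes of 0.41 and -0.46 (limma adjusted p = 0.113 and 0.103), and Stat5b passed with the replicate block (limma adjusted p = 0.0369). Il2 was under the filter, with 0.0533, 0.119 and 0.0773 in WT against 0.581, 0.530 and 0.394 in HdR. Its groups were apart far below 1 base per Mb, and it was called higher in the test with no filter (limma adjusted p = 0.0327). Tslp was not called without WT replicate 3 or HdR replicates 1 or 2, and Jak1 was not called without WT replicates 1 or 3 or HdR replicate 2, while without WT replicate 2 the list had 3 higher and 3 lower genes.

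Of 13 tested gamma-delta T cell and skin homing genes, Cd69 and Cxcr6 rose and Sox13 fell, with a median change of 0.08. Cd69, a marker of activated and resident lymphocytes, read 6.09, 7.82 and 3.23 in WT against 10.3, 12.4 and 20.2 in HdR, a log2 change of 1.20 (limma adjusted p = 0.0259). Cxcr6, a chemokine receptor gene of resident T cells, rose from 4.21 ± 1.01 to 8.87 ± 3.24 (SD, n = 3; limma adjusted p = 0.0344) but did not pass with the length trend removed (limma adjusted p = 0.0738). Sox13, a transcription factor gene of gamma-delta T cells and other tissues, fell from 4.64 ± 2.30 to 1.07 ± 0.211 (limma adjusted p = 0.0181). The selectin ligand gene Selplg had a change of -0.60 (limma adjusted p = 0.0855; 0.0357 with the replicate block). Without WT replicates 1 or 3 or HdR replicate 2, 0 genes of the list were called, and 1 was higher without HdR replicate 1 (Cd69) or HdR replicate 3 (Cxcr6). Il17a, Il17f, Il23r and Ccr6 were in the table but under the filter. The groups of Il17a were apart, 0.193, 0.0521 and 0.119 in WT against 0.211, 0.484 and 0.205 in HdR, at levels too low to be tested. Those of the others overlapped.

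Among 10 tested regulatory T cell and checkpoint genes, Il10 rose and Ikzf2 fell, with a median change of 0.34. Il10, an anti-inflammatory cytokine gene that macrophages express as well, read 4.96, 10.1 and 2.27 in WT against 17.9, 27.0 and 11.5 in HdR, a log2 change of 1.64 (limma adjusted p = 0.0260). Ikzf2 fell by 0.49 on the log2 scale (limma adjusted p = 0.0431), and its change was 0.07 with the length trend removed (limma adjusted p = 0.735). Foxp3, the defining transcription factor gene of regulatory T cells, read 6.29, 3.68 and 5.22 in WT against 5.83, 6.32 and 7.53 in HdR and did not pass (limma adjusted p = 0.249). The receptor genes Tnfrsf4 and Tnfrsf18 had changes of 0.49 and 0.51 (limma adjusted p = 0.0805 and 0.122), and with the replicate block Tnfrsf18 and Pdcd1 rose beside Il10. Il10 was not called without WT replicates 1 or 3 or HdR replicates 1 or 2, Ikzf2 was not called without any 1 of the 6 libraries, and 2 genes, Il10 and Tnfrsf9, were higher without HdR replicate 3.

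Of 14 T lineage transcription factor genes, Id2 and Id3 rose and Rora fell, and the median change was 0.13. These 3 genes are expressed in many skin cells, and their levels were far above those of the CD3 genes: Id2 was 85.0 ± 24.4 and 148 ± 23.9, Id3 96.7 ± 16.1 and 172 ± 7.94, and Rora 425 ± 35.2 and 253 ± 53.2 bases per Mb in WT and HdR (SD, n = 3; limma adjusted p = 0.0270, 0.0134 and 0.0258). With the length trend removed Id3 and Rora did not pass, with changes of 0.44 and -0.18 (limma adjusted p = 0.0791 and 0.436), while Runx1 and Ikzf1, with changes of 0.74 and 0.72, did (limma adjusted p = 0.0258 and 0.0447). Tcf7, a factor of naive and memory T cells, had a change of -0.37 (limma adjusted p = 0.142). Id2 was not called without WT replicates 1 or 3 or HdR replicates 1 or 2, Id3 was not called without WT replicate 1, and Rora was not called without WT replicates 1 or 3 or HdR replicate 2.

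Markers of other cells give the setting, and their calls stand beside 12.7% higher and 17.9% lower of all genes tested. Of 8 pan-leukocyte genes, Arhgdib rose and the others were not called, and their summed level was 386 to 824 in WT and 665 to 1145 in HdR. With the replicate block 4 were higher (Arhgdib, Cd52, Cd53 and Coro1a) and 1 lower (Rac2), and with the length trend removed 0 were called, Arhgdib having a limma adjusted p of 0.0743. Ptprc, which encodes CD45, read 77.3, 114 and 64.9 in WT against 105, 75.2 and 76.2 in HdR, a log2 change of 0.02 (limma adjusted p = 0.947). WT replicate 2 was the highest WT library for Ptprc, as it was for Cd3g, Cd3d, Cd247, Lck, Skap1, Il7r and Prf1. Of 6 tested neutrophil markers 5 rose (sum 142 to 198 in WT and 698 to 3186 in HdR), and 4 or 5 did with any 1 library left out. Most of the sum in HdR came from S100a8 and S100a9, with HdR means of 690 and 878. Csf3r was not called (limma adjusted p = 0.399), and Ly6g and Ngp were under the filter. Of 8 monocyte and macrophage markers 5 rose (sum 720 to 1341 in WT and 2091 to 2441 in HdR), and 2 of them, Cd163 and Lyz2, with scaling to total bases. With the length trend removed 4 rose, and Cd68 did not pass (limma adjusted p = 0.110). Of 6 tested markers of group 2 innate lymphoid cells, which carry Il7r and Thy1, Il1rl1 and Il13 passed the test, the sum being 70.7 to 96.5 in WT and 88.0 to 130 in HdR. Il13 read 0.573, 0.719 and 0.281 in WT against 1.22, 1.59 and 1.32 in HdR, so it entered the test through its HdR samples alone and its groups had to be apart, and with the length trend removed it did not pass (limma adjusted p = 0.383). Il5 was below 1 base per Mb in the mean of each genotype. Of 8 mast cell markers 3 rose (sum 507 to 950 in WT and 868 to 1005 in HdR), and of 8 B cell markers only Cd79b was tested and it was not called (sum 3.04 to 5.99 and 5.30 to 12.4).

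These marker counts moved with single libraries. The monocyte and macrophage count fell from 5 to 1 on leaving out WT replicate 1, to 2 on leaving out WT replicate 3 or HdR replicate 1, and to 3 on leaving out HdR replicate 3. The counts of higher pan-leukocyte, innate lymphoid and mast cell markers were each 0 when WT replicates 1 or 3 or HdR replicates 1 or 2 were left out, and 4, 3 and 6 when WT replicate 2 was. Leaving out HdR replicate 3 gave 3, 1 and 1. With scaling to total bases 0 innate lymphoid and 0 mast cell markers were called. The part of these cells in the changes of Il7r, Klrd1, Hcst and Il10 was not tested.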

How the data were processed

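RNA from imiquimod-treated ear skin of 3 WT and 3 HdR samples was sequenced, per the labels, from NEBNext Ultra II libraries on a NovaSeq instrument. The deposited table holds signal, coverage summed as whole aligned bases per gene, with low values gathered at multiples of 300, the bases of a read pair (1656 values equal 300). The genome build is GRCm38 per the submitters' processing notes; aligner, counting program, annotation and strandedness were not given in the sources used here. Library totals were 4433 to 5966 Mb, or 14.8 to 19.9 M read pairs.

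Libraries were scaled by the trimmed mean of M values (30% and 5% trimmed) and expressed as bases per Mb. The filter asked for 1 base per Mb or more in 3 or more libraries. HdR was tested against WT on log2(value + 1) by limma-trend with robust variances (limma 3.58.1, R 4.3.3), with no covariate and both sides. The p-values were adjusted by Benjamini-Hochberg over the 15049 genes that passed the filter, with 0.05 as the threshold. Every adjusted p comes from limma. The procedure was also run on simulated data, which had no length trend and no structure shared between replicate numbers. The changed genes of that simulation left out those of the lowest coverage, so it does not cover these features of the real data. Transcript lengths and gene positions were those of GENCODE M21 on GRCm38, and the longest transcript need not be the expressed one. The length trend was a natural spline with 4 degrees of freedom.

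The genes and lists were chosen with earlier results of these data known, and the gene once listed as Cd244 was matched to its table symbol Cd244a. Named were the 10 genes, up to 4 genes per list with the smallest p, all called genes where 5 or fewer were called in a direction, the 5 genes most like the CD3 chains and markers of other cells; granzymes, Il7, Il2rg, Foxp3, genes under the filter and genes called only under an alternative were chosen after their values were seen, as were the motifs. After removal of genotype means, WT and HdR libraries of the same number had r of 0.163, 0.42 and 0.37 over genes for numbers 1, 2 and 3. Between different numbers r was -0.38 to 0.159, so number 1 was hardly above the highest of these. Values with the replicate number as a block are given where they change the call of a gene named from the T and NK cell lists. The labels do not say what the number marks. Alternatives were other scalings, filters, a pseudocount of 0.1, the block, the length trend and each library left out.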

Additional observations from a re-analysis of the deposited data

How the results depend on the processing

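Klrd1 and Hcst were higher in HdR in the main test and all 15 alternatives. Il7r was called in 10 of these 16 tests. Il2rb was called in 8 and Skap1 in 7 of the 15 that included them, and Prf1 in 6 of the 12 that included it. A change of pseudocount to 0.1 moved no count by over 1.5 times. Over all genes, 917 were higher and 4305 lower with scaling to total bases, where the median change was -0.41, 1017 and 1127 without a filter, 4094 lower with the replicate block and 1263 lower with the length trend removed. Of the 10 T and NK cell genes, total scaling called 0 higher and 2 lower, and the test with no filter called 0 in either direction. The filter at 5 bases per Mb called 1 higher and 0 lower, beside 1727 higher and 2422 lower of 12189 genes tested. Removal of the length trend called 1 higher and 0 lower, beside 1621 and 1263 of 14903. Adding the replicate block to this removal called 1 higher, Il7r, and 2 lower, Thy1 and Prf1, beside 2460 and 2172 of 14903. Median-of-ratios scaling called 2 higher and 1 lower, beside 2170 and 2386 of 15048. The filter at 5 removes Cd3e, Skap1, Il2rb and Prf1 from the test; the causes of the other moves were not tested. With total scaling the changes of Cd3e, Cd247 and Lck were -0.22, -0.0552 and -0.15.

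In the related lists, total scaling gave 5 lower signalling genes, 3 lower and 0 higher homing genes and 0 higher genes in the IL-7 axis and among the transcription factors. Without a filter 0 signalling, 0 IL-7 axis, 0 homing, 0 regulatory and 0 transcription factor genes were lower, and 0 homing, 0 regulatory and 1 transcription factor gene were higher. The filter at 5 left 0 lower homing genes. The replicate block gave 2 higher coreceptor genes, 5 lower signalling genes, 2 lower in the IL-7 axis, 2 lower homing genes and 3 higher regulatory genes, and changed no other list count by over 1.5 times. Removal of the length trend gave 3 higher and 1 lower signalling genes, 0 and 0 in the IL-7 axis, 1 higher homing gene, 0 lower regulatory genes and 0 lower transcription factor genes. With the trend removed and the replicate block there were 2 higher coreceptor genes, 4 higher signalling genes, 2 lower cytotoxic genes, 2 higher and 0 lower in the IL-7 axis, 2 lower homing genes, 0 lower regulatory genes and 4 higher and 0 lower transcription factor genes. Median-of-ratios scaling gave 0 lower regulatory genes, and quantile normalisation 1 lower signalling gene, 2 higher in the IL-7 axis and 2 higher and 0 lower regulatory genes.

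With each library left out in turn, the counts over all genes ran from 197 to 2657 higher and from 230 to 3359 lower, and those of the 10 genes from 0 to 4 higher and from 0 to 1 lower. The ranges were 0 to 1 higher for coreceptors, 0 to 3 higher and 0 to 3 lower for signalling, 2 to 4 higher for cytotoxic genes, 0 to 3 higher and 0 to 3 lower for the IL-7 axis, 0 to 2 higher and 0 to 1 lower for homing, 0 to 2 higher and 0 lower for regulatory genes, and 0 to 2 higher and 0 to 1 lower for transcription factors. The change of Cd3e ran from -0.22 to 0.22 and that of Lck from -0.0419 to 0.34. Depth limits Prf1, Skap1, Il2rb and Cd3e most, with 10 to 78 read pairs each per library.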
